A study of Arabidopsis thaliana with 15 samples.

Results

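The Polycomb peaks around the 5 centromeres of Arabidopsis thaliana were taken from the wild-type lists of H2AK121ub and H3K27me3. A peak was a member when its midpoint lay in 1 of 5 TAIR10 intervals. These were 11.5 to 17.7 Mb of chromosome 1, 1.1 to 7.2 Mb of chromosome 2, 10.3 to 17.3 Mb of chromosome 3, 1.5 to 6.3 Mb of chromosome 4 and 9.0 to 16.0 Mb of chromosome 5. They are called the pericentromeric intervals below, and the remainder of the 5 chromosomes is called the rest. The members were 1611 of 16310 H2AK121ub peaks and 559 of 4367 H3K27me3 peaks, 2170 of 20677 peaks in all. The choice used position alone, so density, length, overlap and gene content were all free to vary.

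The study immunoprecipitated chromatin of whole seedlings and sequenced the DNA, in 15 libraries from wild type and Polycomb mutants. The lists described here come from wild-type Col-0 plants, grown on plates in long days without further treatment, with 2 libraries for each mark and 1 wild-type input. The labels give an age of 10 days after germination for all of these, and the methods also mention younger wild-type data that were joined to them, so the age behind the lists is not settled. A whole seedling mixes root, leaf and meristem cells, and a peak does not show in which of them the mark lay.

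Polycomb group proteins keep developmental genes silent in cells where they are not needed. Polycomb repressive complex 1 (PRC1) attaches a single ubiquitin to a lysine near the end of histone H2A, giving H2AK121ub, and Polycomb repressive complex 2 (PRC2) places 3 methyl groups on lysine 27 of histone H3, giving H3K27me3. Pericentromeric chromatin of Arabidopsis is rich in transposons and satellite repeats, is kept compact by DNA methylation and H3K9 methylation, and holds scattered genes as islands within it.

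The intervals held 31.1 Mb, which is 26.1% of the nuclear bases, but 3383 of the 27444 protein coding genes (12.3%). Gene density was 109 protein coding genes per Mb against 273 in the rest, and 21.8% against 65.5% of bases lay in them. Pseudogenes, a class in which the annotation places many transposon remains, numbered 3777 in the intervals and 1066 in the rest. Of all 100-base words in the intervals, 90.3% occurred at a single place in the assembly, against 98.5% in the rest. Reads from repeated words cannot be placed with certainty, so this share is given beside the results it touches.

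Sequences from the intervals show what the peaks did and did not cover, and all of them come from the RefSeq copy of TAIR10, written 5′ to 3′. The core of Arabidopsis centromeres is a tandem satellite, and a search of periods from 100 to 300 bp found 178 bp as the most frequent period in the intervals. Stretches in which neighbouring copies shared at least 80% of bases formed 237 arrays of 283 kb in all, every one of them inside the intervals. No base of these arrays lay under an H2AK121ub peak or an H3K27me3 peak. A unit from the longest array of chromosome 4 and the unit in the same phase from chromosome 3, whose bases that differ from the first are in capitals, read as follows.
satellite of chromosome 4, chr4:3978340-3978517, plus strand: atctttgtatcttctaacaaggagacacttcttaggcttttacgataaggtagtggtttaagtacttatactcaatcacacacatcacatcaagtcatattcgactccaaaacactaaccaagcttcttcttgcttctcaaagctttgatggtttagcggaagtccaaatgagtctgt
satellite of chromosome 3, chr3:13591302-13591479, minus strand: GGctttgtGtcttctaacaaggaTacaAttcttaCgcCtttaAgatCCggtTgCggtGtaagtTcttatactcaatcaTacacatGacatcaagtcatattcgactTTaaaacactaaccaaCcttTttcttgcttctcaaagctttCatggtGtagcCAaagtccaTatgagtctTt
The pair shared 85.4% of their bases. The arrays held 15.0 kb on chromosome 1, 23.8 kb on chromosome 2, 9.51 kb on chromosome 3, 103 kb on chromosome 4 and 131 kb on chromosome 5. The nearest peak to any array was an H3K27me3 peak 1954 bp away on chromosome 5. The assembly holds part of the true arrays, so these are lower limits for the satellite, and reads of the satellite cannot be placed at a single copy.

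Nearly all peak sequence in the intervals was single copy, while 2 H3K27me3 peaks of chromosome 2, given below, were mostly not. Of the 100-base words in peaks of the intervals, 99.7% for H2AK121ub and 99.5% for H3K27me3 were unique, against 89.0% for bases under no peak. A window from an H2AK121ub peak and another from an H3K27me3 peak are shown with the telobox (AAACCCTA on either strand) in capitals, because teloboxes are bound by plant proteins that recruit PRC2. They are the 160 bp windows with most telobox copies in peaks of each mark in the intervals that contain no untranslated region.
H2AK121ub, chr3:16460295-16460454, at the start of VPS24.2 (AT3G45000): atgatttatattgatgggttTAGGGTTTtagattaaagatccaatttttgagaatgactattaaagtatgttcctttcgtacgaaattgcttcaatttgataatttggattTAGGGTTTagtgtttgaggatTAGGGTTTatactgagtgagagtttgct
H3K27me3, chr3:16355092-16355251, intergenic: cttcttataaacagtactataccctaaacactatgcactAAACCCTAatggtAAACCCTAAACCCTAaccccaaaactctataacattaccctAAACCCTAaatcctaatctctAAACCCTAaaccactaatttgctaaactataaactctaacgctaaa
The first window had 3 copies and belonged to a peak of 3359 bp on VPS24.2, which encodes a protein of the SNF7 family, members of which sort membrane cargo. The second had 5 copies in a peak of 7523 bp and lay in no protein coding gene. For the windows shown here, intergenic means off protein coding genes and the 750 bp ahead of their starts. Pseudogenes and other non-coding genes were not looked up for these windows. The GAGA motif (GAGAGAGA on either strand), also bound by plant factors that recruit PRC2, was densest among H2AK121ub peaks in an intergenic window with 9 overlapping copies, in a peak of 835 bp.
H2AK121ub, chr1:13258757-13258916, intergenic: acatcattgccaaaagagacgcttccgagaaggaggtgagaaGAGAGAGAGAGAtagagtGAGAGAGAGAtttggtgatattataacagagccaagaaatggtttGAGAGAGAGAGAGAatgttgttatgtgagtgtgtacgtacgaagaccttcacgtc
Among all peak centres of 300 bp in the intervals, 5.52% of H2AK121ub centres (89 of 1611, 95% Wilson interval 4.51% to 6.75%) and 5.37% of H3K27me3 centres (30 of 559, 3.78% to 7.56%) held a telobox. The same share over all 300 bp tiles was 4.63% in the intervals, 3.60% in the rest and 3.87% in the genome. In the rest 5.52% of H2AK121ub centres and 5.02% of H3K27me3 centres held it. The GAGA motif was in 7.20% of H2AK121ub centres (6.04% to 8.57%) and 4.47% of H3K27me3 centres (3.05% to 6.52%) in the intervals, against 3.43% of all tiles there and 4.71% of tiles in the genome. In the rest 8.06% and 5.72% of centres held it, against 5.16% of tiles. Telobox shares of peak centres were thus close in the intervals and the rest, while the share of all tiles was higher in the intervals. A match of letters does not show that a protein bound there.

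Both marks were thinner in the intervals than in the rest on every chromosome, and H2AK121ub thinned more. H2AK121ub had 51.8 peaks per Mb against 167 in the rest, a ratio of 0.310 (SD 0.0466 over 5 chromosomes). H3K27me3 had 18.0 peaks per Mb against 43.2, a ratio of 0.416 (SD 0.0697). By bases the gap between the marks was wider. H2AK121ub covered 5.82% of the intervals against 25.5% of the rest, a ratio of 0.229 (SD 0.0574), and H3K27me3 covered 8.44% against 18.6%, a ratio of 0.455 (SD 0.162).

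On chromosome 1 H2AK121ub covered 7.36% of the interval and H3K27me3 9.42%. The values were 4.52% and 6.05% on chromosome 2, 5.88% and 10.5% on chromosome 3, 4.13% and 4.99% on chromosome 4, and 6.69% and 9.97% on chromosome 5. In the rest of the chromosomes H2AK121ub covered 24.7% to 25.9% and H3K27me3 16.5% to 19.9%. H3K27me3 therefore covered more bases than H2AK121ub in 5 of 5 intervals, and fewer in the rest of 5 of 5 chromosomes. The H3K27me3 to H2AK121ub ratio of covered bases was 1.45 in the intervals, from 1.21 to 1.79 by chromosome, and 0.729 in the rest, from 0.639 to 0.769. Because each list already pools the replicates, these values have no error between plants, and the spread over chromosomes is the only repeat the lists allow. No significance test was made.

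**Figure D1:**
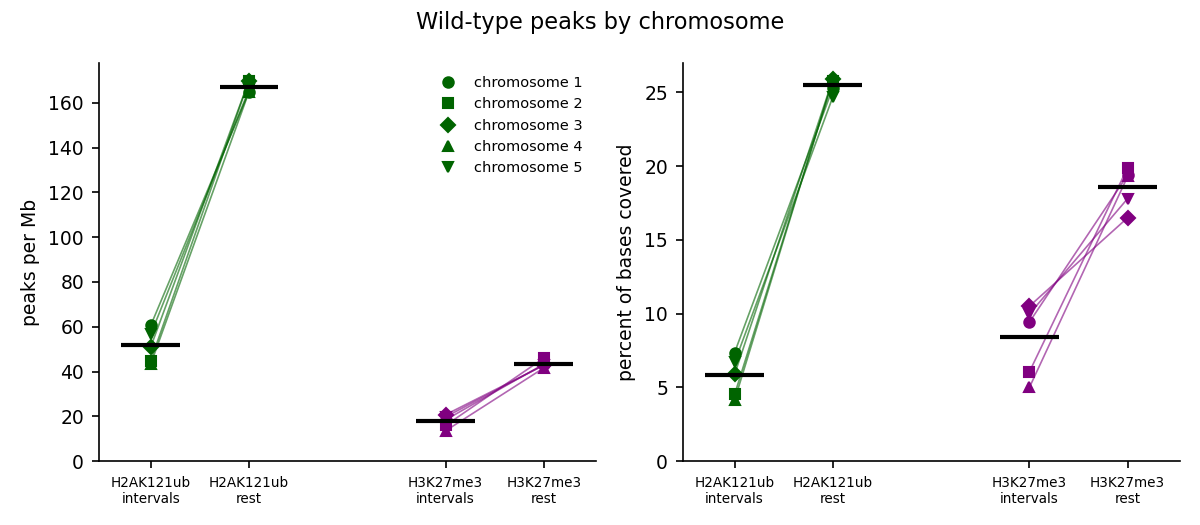
Peaks per Mb (left) and percent of bases covered (right) for each mark in the pericentromeric intervals and in the rest, with 1 symbol per chromosome and the 5 chromosomes together as black bars. Cover by H2AK121ub falls from 25.5% to 5.82% and cover by H3K27me3 from 18.6% to 8.44%, and on each chromosome the interval lies below the rest.

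The marks did not stop at the interval edges but fell over about 2 Mb. In the 0.5 Mb just outside the edges H2AK121ub covered 18.2% and H3K27me3 20% of bases. In the first 0.5 Mb inside, H2AK121ub covered 13.6% and H3K27me3 still 19.9%, while bases in protein coding genes went from 58.1% to 41.2%. Outside the edges the order of the marks varied, with 19.3% for H2AK121ub and 22.4% for H3K27me3 from 1.0 to 1.5 Mb outside and 22.9% and 22.2% from 0.5 to 1.0 Mb outside. From 1.0 to 1.5 Mb inside, cover was 6.18% for H2AK121ub and 9.26% for H3K27me3. From 2.0 to 2.5 Mb inside the marks were close, at 1.58% and 1.26%, and from 3.0 to 3.5 Mb inside, where 14 H2AK121ub peaks and 4 H3K27me3 peaks remained on the chromosomes whose intervals reach that deep, cover was 0.547% and 0.527%. Within the intervals, H3K27me3 thus exceeded H2AK121ub in each step of the outer 2 Mb and in no step deeper.

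**Figure D2:**
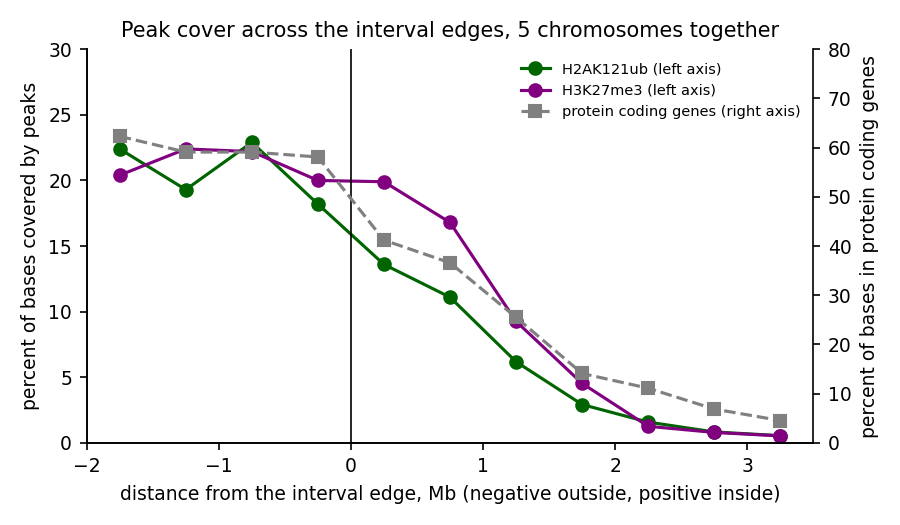
Percent of bases covered by each mark (left axis) and lying in protein coding genes (right axis) in steps of 0.5 Mb from the interval edges, the 5 chromosomes together and both sides of each interval pooled. H3K27me3 stays at 19.9% in the first step inside while H2AK121ub is at 13.6%, and both are below 2% from 2.0 Mb inward.

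Long stretches near the centromeres had no peak of either mark. Of 311 windows of 100 kb in the intervals, 75 (24.1%) lacked both marks, against 0 of 877 in the rest. Windows with under 10% of bases in protein coding genes made up 70 of the 81 interval windows without H2AK121ub. They also made up 94 of the 125 without H3K27me3. No window of the rest was that poor in genes, and the part of gene content was not tested. The longest peak-free stretch measured 1296 kb on chromosome 1 (14308282 to 15603842), with 12 protein coding genes and 134 pseudogenes. The assembly leaves 163558 of its bases undetermined, where no peak can be called and no word counts as unique. The 12 genes include SKS6, which reaches past the edge and carried H2AK121ub. The longest stretch was 488 kb on chromosome 2 (2979819 to 3468201), 770 kb on chromosome 3 (13538303 to 14307940), 713 kb on chromosome 4 (3357850 to 4070687) and 616 kb on chromosome 5 (10998701 to 11614764). In the rest of the chromosomes the longest such stretch ran from 38.9 kb to 92.2 kb. Unique words made up 11.7%, 50.6%, 100%, 20.3% and 7.47% of these stretches of the rest on chromosomes 1 to 5, so most of them were largely repeated sequence. The share of unique words in the 5 pericentromeric stretches was 39.9%, 55.1%, 75.0%, 90.2% and 91.1%, so the stretches of chromosomes 4 and 5 were mostly open to read placement and had no call. The part of repeats in the others was not tested.

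The H3K27me3 peaks nearest to the middle of these stretches measured from 215 to 5069 bp. On chromosome 4 it was a peak of 982 bp with an H2AK121ub peak over its whole length, on AT4G06534, which encodes an uncharacterized protein, and on chromosome 5 an H3K27me3 peak of 799 bp with 746 bp of H2AK121ub, on AT5G28960, annotated as an alpha-(1,6)-fucosyltransferase. On chromosome 3 the H3K27me3 peak measured 215 bp, carried no H2AK121ub and lay on a pseudogene. On chromosome 1 the H3K27me3 peak reached 5069 bp with 463 bp of H2AK121ub over MCT1, of the MEI2 family of RNA-binding proteins, and the end of HCS2. The centre of the chromosome 4 peak, all of it coding sequence, and the whole chromosome 3 peak are shown as the H3K27me3 calls closest to the middle of those stretches.
H3K27me3 and H2AK121ub, chr4:3357171-3357470, AT4G06534: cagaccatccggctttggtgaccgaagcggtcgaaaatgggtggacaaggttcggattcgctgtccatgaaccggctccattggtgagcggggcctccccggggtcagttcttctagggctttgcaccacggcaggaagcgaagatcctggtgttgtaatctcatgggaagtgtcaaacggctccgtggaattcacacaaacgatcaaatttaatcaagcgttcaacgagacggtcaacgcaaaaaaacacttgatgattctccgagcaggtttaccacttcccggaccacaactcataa
H3K27me3, chr3:13538088-13538302: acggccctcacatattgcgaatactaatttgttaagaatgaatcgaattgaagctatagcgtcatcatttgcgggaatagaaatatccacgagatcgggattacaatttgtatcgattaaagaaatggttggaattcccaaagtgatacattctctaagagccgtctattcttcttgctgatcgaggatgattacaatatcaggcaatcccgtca
All 100-base words of both peaks were unique in the assembly by exact match. A diverged copy of organelle DNA would also count as unique, and neither peak was searched for one.

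The peak-free stretch of chromosome 2 held a copy of organelle DNA. Of its 100-base words 43.3% had an exact match in an organelle genome, against 0% in the stretches of the other chromosomes. From 3239038 to 3509765, over 271 kb, 92.3% of 100-base words were also found in the mitochondrial or chloroplast genome. None of the 94 protein coding genes there carried H2AK121ub and 2 carried H3K27me3, from 2 H3K27me3 peaks. These were the members of lowest uniqueness in either list. The first, 456 bp on AT2G07732, annotated with a RuBisCO large chain domain, had 24.3% unique words. Of its 357 words, 246 were in the mitochondrial genome and 11 in the chloroplast genome. The second, 535 bp, had no unique word. All 436 words were in the mitochondrial genome, and 127 of them were also in the chloroplast genome. The central 120 bp of the second are shown. Reads of this peak could come from the nucleus, the mitochondrion or, for part of it, the chloroplast, which cannot be told apart.
H3K27me3, chr2:3495981-3496100: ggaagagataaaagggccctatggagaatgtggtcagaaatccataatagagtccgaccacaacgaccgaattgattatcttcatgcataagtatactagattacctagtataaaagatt
Outside these 271 kb, 38.7% of the 595 pericentromeric protein coding genes of chromosome 2 carried H2AK121ub and 20.5% H3K27me3, against 33.4% and 18.0% of all 689.

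Between windows of like gene content, H2AK121ub was lower in the intervals in each group compared, while the order for H3K27me3 varied with the group. The groups compared leave out most interval windows. Of these, 112 held 0 to 10%, 55 held 10 to 20% and 37 held 20 to 30% of bases in protein coding genes. The rest had 1 window below 30%, so the gene-poor part of the intervals could not be matched. In 100 kb windows with 40 to 50% of bases in protein coding genes, H2AK121ub covered 13.6% ± 6.22 (SD, n = 34 windows) in the intervals and 24.1% ± 7.62 (n = 56) in the rest. In windows with at least 50% it covered 15.1% ± 4.60 (n = 26) and 25.5% ± 7.97 (n = 807). The same windows gave H3K27me3 covers of 22.3% ± 13.6 and 28.0% ± 14.2 at 40 to 50%, and 19.6% ± 13.3 and 17.7% ± 10.6 at 50% and more. In these 2 groups the H3K27me3 values of the intervals and the rest lay within 1 SD of each other, in opposite order. Windows with 30 to 40% gave a wider gap for both marks, with H2AK121ub at 9.47% ± 5.47 and H3K27me3 at 14.4% ± 13.2 in 47 windows of the intervals against 25.5% ± 14.1 and 39.5% ± 14.7 in the rest, where the group is thin at 13 windows. The last group is not fully matched, since its windows held on average 56.4% coding gene bases in the intervals and 67.4% in the rest. Neighbouring windows can share a peak, so the SD describes windows and not independent samples.

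**Figure D3:**
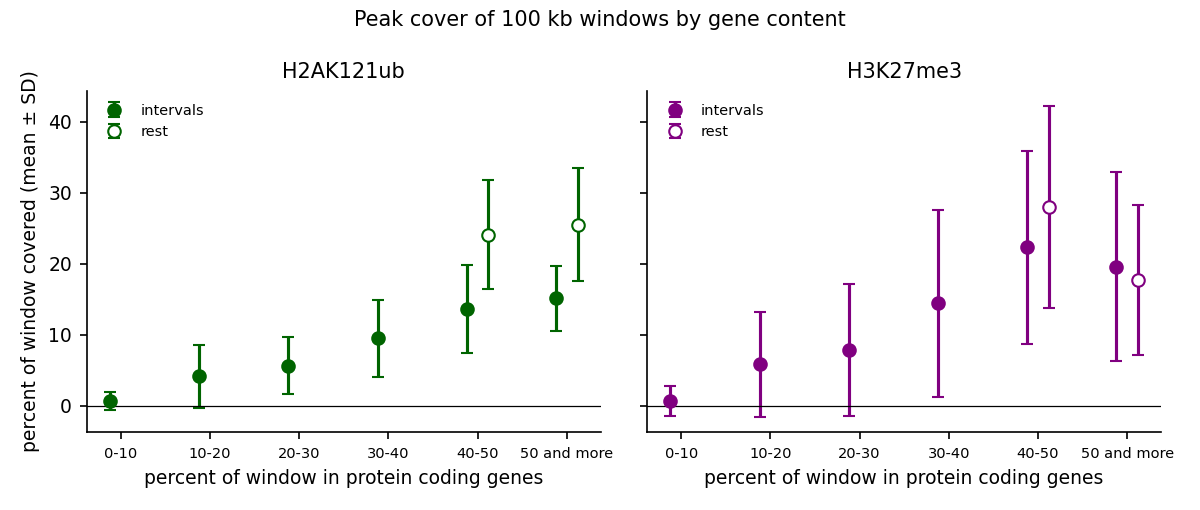
Percent of each 100 kb window covered by H2AK121ub (left) and H3K27me3 (right), as mean ± SD over windows grouped by their share of bases in protein coding genes, for windows of the intervals (filled) and of the rest (open); groups of fewer than 20 windows are left out. At 40 to 50% the H2AK121ub means are 13.6% and 24.1%, and the H3K27me3 means 22.3% and 28.0%.

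Set against the number of genes, the marks separated in the same way. H2AK121ub had 47.6 peaks per 100 protein coding genes in the intervals against 61.1 in the rest, a ratio of 0.780 that was below 1 on 5 of 5 chromosomes. H3K27me3 had 16.5 against 15.8, a ratio of 1.04 that was above 1 on 3 of 5 chromosomes and fell to 0.982 without chromosome 3.

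H2AK121ub peaks were shorter in the intervals, and H3K27me3 peaks were not. The median H2AK121ub peak measured 785 bp (quartiles 442 and 1457 bp) against 1013 bp (494 and 2007 bp), with a ratio from 0.627 to 0.861 by chromosome. The median H3K27me3 peak measured 3173 bp (1490 and 6390 bp) against 2891 bp (1409 and 5716 bp). By chromosome it was 3675 bp, 2299 bp, 3892 bp, 2540 bp and 3158 bp in the intervals of chromosomes 1 to 5, and it exceeded the rest on chromosomes 1, 3 and 5 and fell below it on chromosomes 2 and 4, so no direction held, and without chromosome 3 the ratio was 0.994. H3K27me3 peaks of at least 10 kb numbered 58 of 559 in the intervals (10.4%) and 337 of 3808 in the rest (8.85%). H2AK121ub reached that length in 1 peak of the intervals.

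The longest H3K27me3 peak of each interval had H2AK121ub on a small part of its bases, and those of chromosomes 1, 2, 3 and 5 spanned at least 4 protein coding genes. Over all H3K27me3 peaks, 4 or more gene bodies lay under 5.19% in the intervals and 5.38% in the rest, and 27 of the 559 interval peaks met 3 or more H2AK121ub peaks. The longest, 27585 bp on chromosome 1 (12300372 to 12327956), carried 2134 bp of H2AK121ub in 2 peaks and covered 7 protein coding genes. They include AT1G33880 and AT1G33890 of the avirulence induced gene (AIG1) family, whose founding member responds to bacterial infection, and PP2-A4, a phloem protein. The longest of chromosome 3, 26728 bp (17021296 to 17048023), carried 2469 bp of H2AK121ub and covered MEE39, AT3G46340, AT3G46350 and AT3G46355, all leucine-rich repeat receptor-like kinases, next to AT3G46360. That of chromosome 5, 24670 bp (15104339 to 15129008), had 2489 bp of H2AK121ub over a group of metabolic genes, with a dehydrogenase (AT5G37940), a glycosyltransferase (AT5G37950) and a methyltransferase (AT5G37970) among them. That of chromosome 2, 21342 bp, covered MATH and TRAF-like domain genes and the glycine-rich protein gene GRP9, and that of chromosome 4, 14361 bp, covered KNAT1. H2AK121ub lay on 4.40% to 17.2% of the bases of these 5 domains. The domain of chromosome 3 lay within 0.5 Mb of an interval edge.

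The longest H2AK121ub peaks took more than 1 form. On chromosome 1 a peak of 7299 bp over AT1G47400 and on chromosome 2 a peak of 6922 bp over LURP1, which is needed for basal defence against a downy mildew, lay fully inside H3K27me3. On chromosome 3 a peak of 7094 bp over MYB21 shared 91.5% of its bases with H3K27me3. On chromosome 4 a peak of 5647 bp over MSRB6, a methionine sulfoxide reductase, and KEA3, a potassium antiporter of chloroplasts, shared 39.2%. On chromosome 5 a peak of 13196 bp over the neighbouring sugar transporter-like genes SFP1 and SFP2 had no H3K27me3 at all. The peaks of chromosomes 1 and 3 lay within 0.5 Mb of an interval edge.

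H3K27me3 peaks of the intervals lacked an H2AK121ub partner more often than those of the rest. At least 1 bp of H2AK121ub lay under 464 of 559 H3K27me3 peaks in the intervals, 83.0% (95% Wilson interval, here and below for counting error over peaks or genes only, 79.7% to 85.9%), against 94.7% in the rest and 93.2% over all H3K27me3 peaks. The share was lower in the interval on 5 of 5 chromosomes, from 76.6% on chromosome 3 to 88.6% on chromosome 1. The 95 H3K27me3 peaks without H2AK121ub had a median length of 2851 bp against 3251 bp for the 464 with it, and 28.4% against 11.6% of them lay off every protein coding gene and its 750 bp upstream window. The rest showed the same order, with medians of 2631 bp without H2AK121ub and 2915 bp with it, and 17.4% against 4.41% off genes. In the other direction, 612 of 1611 H2AK121ub peaks (38.0%, 35.6% to 40.4%) overlapped H3K27me3, against 33.6% in the rest and 34.0% of all H2AK121ub peaks. The difference ranged from 0.746 to 11.3 percentage points by chromosome, with the highest value on chromosome 3. Over all chromosomes it was 4.41 points, 2.53 without chromosome 3 and 2.08 with intervals drawn in by 0.5 Mb.

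By bases, 43.4% of H2AK121ub and 29.9% of H3K27me3 sequence in the intervals was shared, against 36.5% and 50.1% in the rest. H2AK121ub was thus more often within H3K27me3 in the intervals, and H3K27me3 less often within H2AK121ub. Of the H2AK121ub peaks, 24.3% lay fully within an H3K27me3 peak in the intervals and 15.1% in the rest.

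Genes were the places where peaks lay, although the intervals hold few of them. Of H2AK121ub peaks in the intervals 80.1% touched a protein coding gene or its upstream window, against 91.3% in the rest, and of H3K27me3 peaks 85.5% against 94.9%. Coding sequence made up 11.4% of interval bases but 37.6% of H2AK121ub and 23.6% of H3K27me3 bases. Intergenic sequence made up 43.2% of interval bases, 18.9% of H2AK121ub and 37.5% of H3K27me3 bases. Pseudogenes and other non-coding genes made up 28.2% of interval bases, 8.87% of H2AK121ub bases and 7.12% of H3K27me3 bases. With the 750 bp upstream window counted, an H2AK121ub peak touched 179 of 3777 pseudogenes of the intervals (4.74%) and an H3K27me3 peak 171 (4.53%). In the rest the shares were 40.2% and 32.7% of 1066 pseudogenes. MicroRNA genes showed the same order, with H2AK121ub on 8 of 65 (12.3%) and H3K27me3 on 12 of 65 (18.5%) in the intervals against 51.0% and 41.8% of 261 in the rest.

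A protein coding gene was called marked when a peak touched it between the stop of its body and a point 750 bp ahead of its start. H2AK121ub marked 1433 of 3383 genes of the intervals, 42.4% (40.7% to 44.0%), against 71.8% in the rest and 68.1% of all genes. H3K27me3 marked 837, 24.7% (23.3% to 26.2%), against 29.8% in the rest and 29.2% of all genes. That difference of -5.07 points depended on the settings: it was -1.20 points with gene bodies alone (21.8% against 23.0%), -8.92 with intervals drawn in by 0.5 Mb and -3.08 without chromosome 2. Interval minus rest, the H2AK121ub share differed by -39.6 to -21.8 percentage points on the 5 chromosomes. The H3K27me3 share differed by -13.3 points on chromosome 2 and by -0.213 points on chromosome 3, where 28.6% and 28.8% of genes carried it, so on chromosome 3 the intervals and the rest were nearly level.

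Split by combination, 560 genes of the intervals were H2AK121ub/H3K27me3 genes (16.6%, against 25.3% in the rest and 24.2% of all genes), 873 were only-H2AK121ub genes, 277 were only-H3K27me3 genes and 1673 carried neither mark. The widest gaps were in genes with neither mark, at 49.5% (47.8% to 51.1%) against 23.8% in the rest and 26.9% of all genes, and in only-H2AK121ub genes, at 25.8% (24.4% to 27.3%) against 46.4% and 43.9%. The only-H3K27me3 genes made up 8.19% of interval genes (7.31% to 9.16%) against 4.48% in the rest and 4.93% of all genes, and the share was higher in the interval on 5 of 5 chromosomes, by 0.584 to 6.09 percentage points. The difference of 3.71 points was 2.41 points with intervals drawn in by 0.5 Mb. Among genes with H3K27me3, 66.9% also carried H2AK121ub in the intervals and 85.0% in the rest. Of the 277 only-H3K27me3 genes, 183 (66.1%, 60.3% to 71.4%) lay under an H3K27me3 peak that met H2AK121ub elsewhere along its length, against 78.2% of 1077 in the rest. H3K27me3 spread over the whole body of 299 of the 560 H2AK121ub/H3K27me3 genes in the intervals (53.4%) against 37.7% in the rest, and over the whole body of 57.8% and 54.8% of only-H3K27me3 genes.

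**Figure D4:**
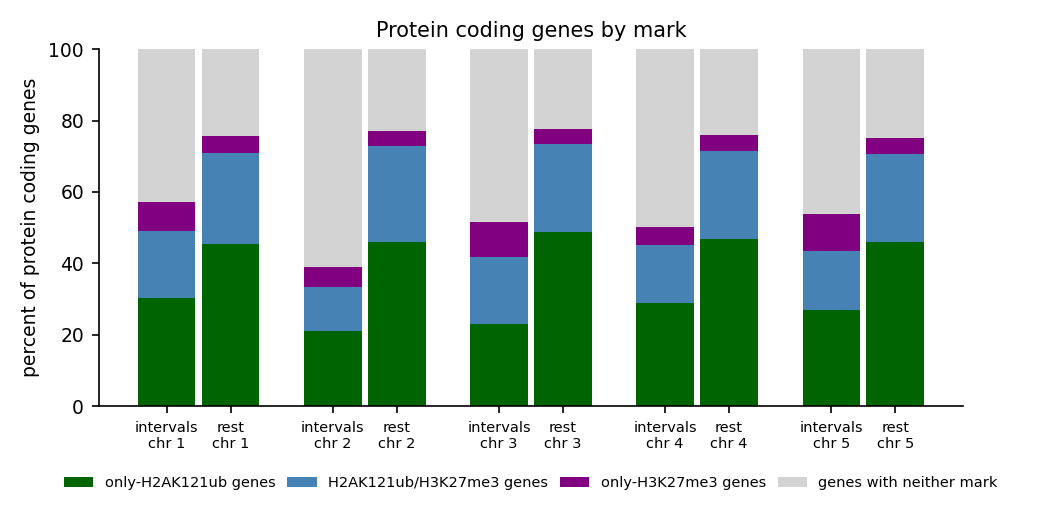
Percent of protein coding genes in each class of marks, by chromosome, for the pericentromeric interval (left bar of each pair) and the rest (right bar). The only-H3K27me3 share is larger in the interval on each chromosome, at 8.19% against 4.48% over the 5 together, and genes with neither mark are more frequent.

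Families of genes differed in their marks, though most have few members in the intervals and the values are counts without a test. F-box genes, which encode the substrate adaptors of SCF ubiquitin ligases, were the largest regulatory family there, with 107 genes, 16.4% of the family. H3K27me3 marked 66 of them (61.7%) against 58.6% in the rest, and H2AK121ub 48 (44.9%) against 65.8%. Only-H3K27me3 F-box genes numbered 32 (29.9%) against 87 of 546 (15.9%), with a higher share in the interval on chromosomes 1, 2, 3 and 5 and a lower one on chromosome 4, where 1 of 12 was of this kind. Receptor-like kinases, which sense ligands at the cell surface, carried H3K27me3 in 16 of 48 (33.3%) against 19.9%, and H2AK121ub in 24 of 48 against 77.4%. Cytochrome P450 genes, whose enzymes oxidise plant metabolites, carried H3K27me3 in 13 of 20 (65.0%) against 48.2%. H2AK121ub was on 75% of the interval P450 genes against 93.0%. For F-box genes the H3K27me3 share was close in the intervals and the rest, higher in the interval on chromosomes 1, 2 and 3 and lower on chromosomes 4 (41.7% against 53.8%) and 5 (69.0% against 70.4%).

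Most other families had lower shares of both marks in the intervals. MYB genes carried H2AK121ub in 8 of 22 (36.4%, against 72.2% in the rest) and H3K27me3 in 8 of 22 (36.4%, against 55.7%). MADS/AGAMOUS-like genes carried H3K27me3 in 7 of 27 (25.9%) against 53.8%. Defensin-like genes, small secreted cysteine-rich peptides, carried H3K27me3 in 3 of 39 (7.69%) against 43.5% and H2AK121ub in 5 of 39 against 41.6%. NBS-LRR disease resistance genes, which encode immune receptors inside the cell, carried H2AK121ub in 10 of 21 (47.6%) against 73.9% and H3K27me3 in 4 of 21 (19.0%) against 30.4%. Ribosomal protein genes carried H3K27me3 in 7 of 37 (18.9%) against 17.3%. Pentatricopeptide repeat genes, which act on organelle RNA, carried it in 1 of 22 (4.55%) against 14.4%. Genes named as hypothetical or uncharacterized proteins were 671 of the 3383 interval genes, with H2AK121ub on 27.3% and H3K27me3 on 16.4%, against 67.6% and 31.3% of 2316 in the rest. With named products alone, the interval shares were 46.1% for H2AK121ub and 26.8% for H3K27me3, against 72.2% and 29.6%.

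**Figure D5:**
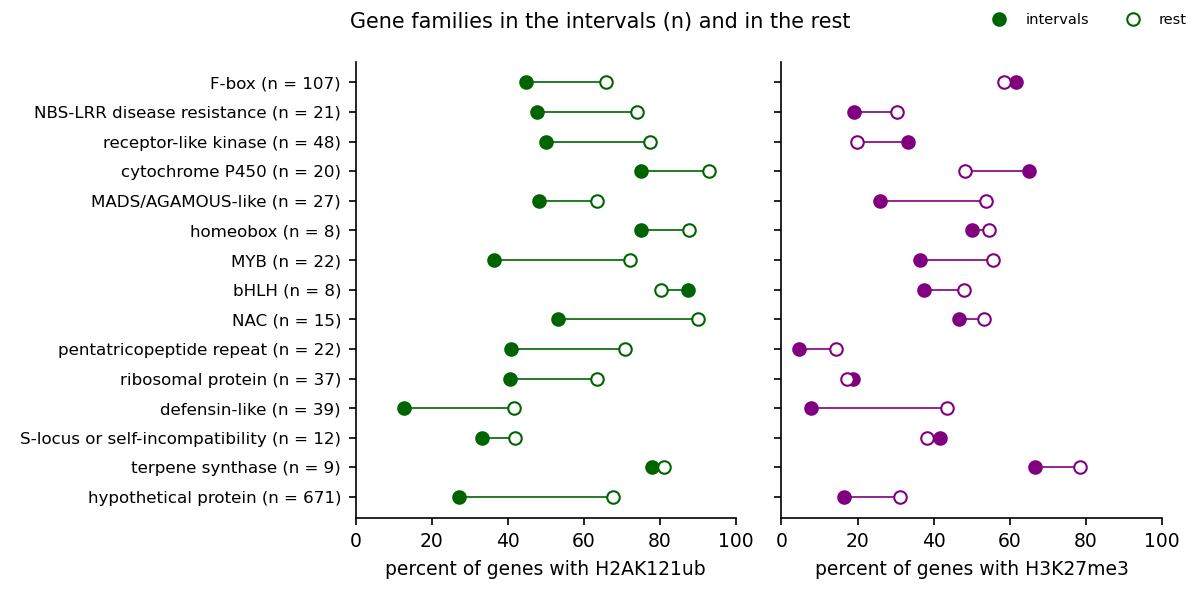
Percent of genes with H2AK121ub (left) and H3K27me3 (right) in each family with at least 8 genes in the intervals, for the intervals (filled, n beside the name) and for the rest (open). H2AK121ub is lower in the intervals in each family shown but bHLH, and H3K27me3 is higher in receptor-like kinase (33.3% against 19.9%) and cytochrome P450 genes (65.0% against 48.2%), and slightly higher in F-box, ribosomal protein and S-locus genes.

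The family members with the longest H3K27me3 stretches in the intervals include known regulators of development, some with H2AK121ub and some without. They were picked by that stretch and by known role, so they do not show how common the mark is in their families. H3K27me3 marked 4 of 8 interval homeobox genes against 54.6% in the rest, and 7 of 15 NAC genes against 53.3%. It marked 3 of 8 interval bHLH genes against 48.0%, and 1 of 4 WRKY genes against 55.9%. WOX4, a homeobox gene of the vascular cambium (chromosome 1, 17236524 to 17238185), had both marks over 100% of its body. NAC012, a regulator of fibre cell walls, had H3K27me3 over 100% and H2AK121ub over 94.3%. MYB21, which controls stamen and petal growth (chromosome 3, 10305849 to 10310492), had 100% and 86.9%. TT8, a bHLH regulator of flavonoid synthesis, had 100% and 54.3%, PRE1, a bHLH gene of growth responses, 100% and 97.1%, and WRKY42 100% and 33.9%. AGL44, a MADS gene of root responses to nitrate, had 100% and 15.8%. WOX4, NAC012, MYB21, TT8 and PRE1 lay within 0.5 Mb of an interval edge, and WRKY42 and AGL44 further in. In that outer 0.5 Mb H3K27me3 covered 19.9% of bases, against 20% just outside the intervals.

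In other regulators H3K27me3 stood alone. KNAT1, a homeobox gene of the shoot meristem (chromosome 4, 5147699 to 5151159), lay in the 14361 bp H3K27me3 peak with no H2AK121ub on its body or upstream window. STK, the MADS gene of ovule identity (chromosome 4, 6236375 to 6241281), AGL79, MYB0, which starts trichomes, and NAC061 had H3K27me3 over 100% of the body and no H2AK121ub. HDG10, a homeobox gene, had H3K27me3 over 69.0% and no H2AK121ub. The receptor-like kinase ANX2, which keeps the pollen tube intact, was likewise an only-H3K27me3 gene, with 100% of the body covered. STK and MYB0 lay within 0.5 Mb of an interval edge, and the others named in this paragraph further in.

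The longest stretch under both marks was on TLL1, a lipase-like gene (chromosome 1, 17123785 to 17129223), with 5530 bp shared. ALD1, an enzyme of pipecolic acid synthesis in systemic immunity, followed with 4219 bp, and MYB21 with 4035 bp. The longest H3K27me3 stretches without H2AK121ub were 8020 bp on CYCB1;5, a B-type cyclin, 6461 bp on AT4G08450, a disease resistance gene of the TIR-NBS-LRR class, and 6328 bp on PEN3, a triterpene synthase. CYP716A1 lies close to PEN3 on chromosome 5 (14195356 to 14197761) and carried H3K27me3 over 100% and H2AK121ub over 23.4% of its body. The longest H2AK121ub stretches without H3K27me3 were 6669 bp on SFP1, 4485 bp on SFP2 and 3295 bp on SKS6, at the edge of the chromosome 1 stretch that held no peak. CYP735A1, which makes trans-zeatin cytokinins, had H3K27me3 over 93.3% and H2AK121ub over 48.9% of its body, and the receptor-like kinase CRK4 97.1% and 93.6%.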

How the data were processed

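The authors' methods describe mapping of ChIP-seq reads to TAIR10 with Bowtie, peak calling for every wild-type replicate against input by MACS2 with defaults, and an intersection of replicate peaks. Versions are not given in the sources used here. The methods state an approximate read number per sample. The deposited files are 2 lists of peak positions with no score or signal. Depth at each peak is therefore unknown, peaks have equal weight, and a region without a peak is a region without a call. How multiply mapping reads were treated is not stated. Reads of repeated sequence can be lost or misplaced, which can lower calls near centromeres.

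The lists were set against RefSeq's TAIR10.1 sequence and annotation, whose 5 chromosome lengths equal TAIR10, with Python, numpy and pandas. Genes were placed by midpoint and marked by at least 1 bp of peak in the body or 750 bp upstream. A word is unique when it occurs at 1 place on either strand, organelles included. Families were picked by product name. Overlap functions were tested on simulated peaks. Named were the longest peaks per chromosome, the peaks nearest to the longest peak-free stretches, genes with the 3 longest stretches per class, and up to 3 symbols per family by H3K27me3 stretch, of which those of known role are printed. Members, lists and alternatives were chosen with earlier results of these data known.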

Additional observations from a re-analysis of the deposited data

How the results depend on the processing

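Of 162 recomputed values over 14 comparisons, 151 kept their direction and moved by less than 1 SD over the 5 chromosomes. Many of them left out 1 chromosome or changed few peaks, so a small move was likely beforehand and the count says little by itself. For the share of H2AK121ub peaks that overlap H3K27me3, the SD of 4.41 points equalled the difference. A fall to 2.08 points with drawn-in intervals was therefore counted as less than 1 SD. Drawn in by 0.5 Mb on both sides, the intervals gave density ratios of 0.246 for H2AK121ub and 0.334 for H3K27me3, and extended by 0.5 Mb they gave 0.382 and 0.486, with a covered-base ratio of 0.291 for H2AK121ub. With all annotated nuclear genes, pseudogenes included, the difference in marked genes was -44.4 points for H2AK121ub, -14.3 for H3K27me3 and 0.348 for only-H3K27me3. Those 3 values count the pseudogenes, which carry few peaks in the intervals. Ratios near 1 changed side: H3K27me3 peak length was 0.994 without chromosome 3, and H3K27me3 peaks per 100 genes 0.982 without chromosome 3 and 0.998 with intervals drawn in, and the cause was not tested. The H3K27me3 to H2AK121ub ratio of covered bases, compared after seeing the data, was 1.80 to 2.11 times as high in the intervals as in the rest. Genes with unique sequence or a named product, and chromosome 2 without its organelle-like stretch, also chosen after seeing the data, changed no direction. A stricter score and leaving out a replicate were not run, because the lists hold neither. No paired analysis was possible because both lists merge the replicates into single positions.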
